A study of Mus musculus with 24 samples.

Results

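The right striatum/thalamus of newborn mice, dissected as a single block of deep forebrain, was compared between pups with hypoxic-ischemic brain injury (HIBI) and sham-operated pups (sham, the controls). Its 8 libraries, 4 HIBI and 4 sham, were taken by the region and injury given in the sample labels from the 24 libraries of the series, which also hold the right cortex and right cerebellum. All 757 endogenous genes among the 784 probes of the panel were included, whatever their level. RNA was counted with the nCounter panel of mouse neuroinflammation genes, where each mRNA is bound by a probe with a fluorescent barcode and the barcodes are counted without amplification. HIBI pups were CD1 mice of both sexes, 9 days old, whose right common carotid artery was cauterized under isoflurane with bupivacaine at the incision. After a recovery period with the dam they were kept at 8% oxygen for 30 min. Sham pups had the same strain, age, anesthesia, analgesia and neck dissection, but no vessel was closed, and they spent the same 30 min in warm normal air. Tissue was taken 30 min after hypoxia or normoxia, each library came from 1 pup, and the pups were numbered 1, 4, 5 and 7 in the HIBI arm and 2, 3, 6 and 8 in the sham arm. No pup had hypoxia without ligation, so the effects of low oxygen, of arterial closure and of both together cannot be told apart.

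As background, the carotid artery feeds the deep forebrain, and the basal ganglia and thalamus are regions whose injury is known to weigh on outcome after birth asphyxia. Neurons that are depolarized or starved of oxygen transcribe immediate early genes within minutes, many through the cAMP response element binding protein CREB and the serum response factor, while cells in low oxygen stabilize hypoxia-inducible factor (HIF), which raises genes of glucose uptake and vessel growth. Cytokine and glial genes generally follow later, through NF-kappaB and Jak-Stat signaling.

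Total counts were 855129 to 924333 in the HIBI libraries and 935799 to 1046405 in the sham libraries, so that no HIBI library reached the smallest sham library (exact permutation test, two-sided p = 0.0286, the smallest that 4 against 4 pups allow). Totals were removed by scaling before any comparison. In each library 614 to 643 endogenous genes lay above the mean plus 2 SD of the 8 negative control probes, a floor of 34.9 to 43.5 counts. The labelled region was checked in sham pups, in CPM, the counts of a gene scaled to a fixed total of endogenous counts. Slc17a6, the glutamate transporter VGLUT2 of thalamic neurons, stood at 13330 to 16050, against 1010 to 2361 in sham cortex, and Tbr1, a transcription factor of cortical neurons, at 76.6 to 119, against 867 to 1043 in sham cortex. The defining dopamine receptor genes of the striatum, Drd1 and Drd2, were not on the panel. HIBI pups 4 and 5 were rich in Ttr, which choroid plexus cells transcribe, with 3123 and 2405 normalized counts, while HIBI pups 1 and 7 held 77.8 and 70 and sham pups 68.7 to 148, and its part in the results below was not tested except by leaving both libraries out. Ttr was the only choroid plexus marker of its list on the panel.

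In the edgeR quasi-likelihood test 20 of 732 genes with enough counts passed an adjusted p under 0.05, which is 2.73% of the genes tested. Of these, 15 (2.05%) rose in HIBI and 5 (0.683%) fell, and 15 and 2 did when the libraries were scaled by the 13 reference genes. The split changed more with the pups included, with 35 higher and 20 lower without HIBI pup 4, 28 and 20 without HIBI pups 4 and 5, 6 and 0 without HIBI pup 5, and 5 and 0 without sham pup 3, 6 or 8. A fit of the 24 libraries of the series called 23 higher and 3 lower and kept 14 of the 20, losing Slc17a6, Ccl2, Eomes, Srxn1, Flt1 and Tpd52. The rises were led by immediate early and stress transcription factors (Fos, Atf3, Egr1, Maff), and also included an acute phase protein, a prostaglandin enzyme, a chemokine and, with smaller folds, genes of low oxygen, whereas the falls were led by a neurotrophin and a synaptic glutamate transporter. All 5 falls were to between 64.3% and 86.4% of sham, while the 15 rises began at 1.52-fold, and the highest fold, 10.5 for Atf3, was over sham values at background and is uncertain in size. The arms did not overlap in any of the 20 genes, where over all genes tested the HIBI pups lay fully above the sham pups in 5.19% and fully below them in 4.23%. Most of the panel stayed near its sham level: 569 genes, or 77.7%, had a log2 fold change within 0.25 of 0, and the median over all genes tested was 0.0038 (375 genes, or 51.2%, higher and 357, or 48.8%, lower). At an unadjusted p under 0.05, 89 genes (12.2%) were higher and 45 (6.15%) lower, and at the study's threshold of 1.5-fold with an unadjusted p under 0.05, 30 genes (4.1%) were listed, of which 29 (3.96%) were higher.

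**Figure D1:**
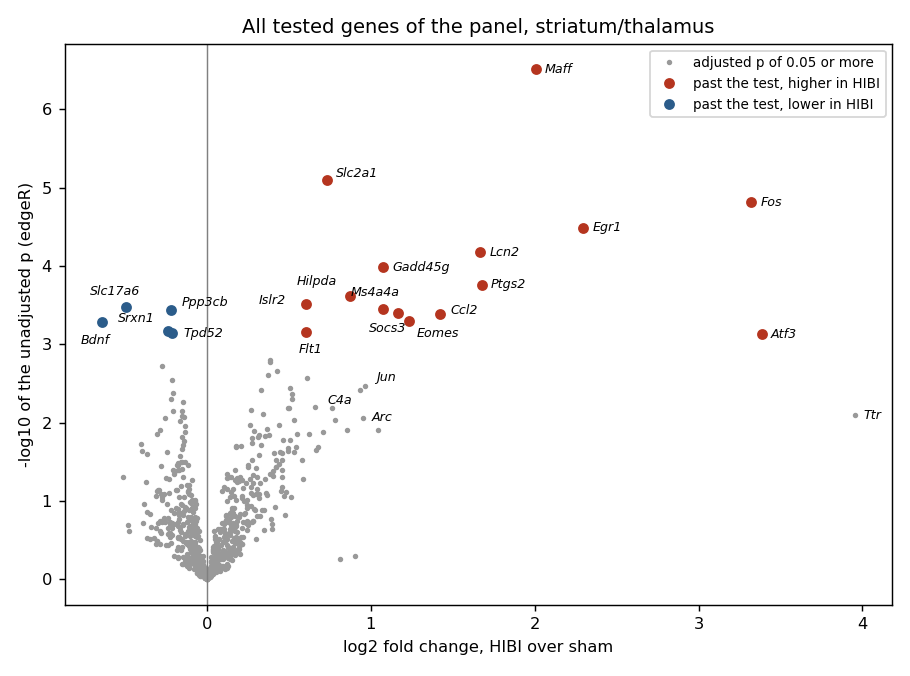
Each point is 1 of the 732 genes tested in striatum/thalamus, with the log2 fold change of HIBI over sham on the x axis and the -log10 of the unadjusted edgeR p on the y axis. The 15 genes past the test on the right reach further out than the 5 on the left, and Ttr, which is high in 2 HIBI pups only, has the largest fold change without passing.

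The AP-1 and stress factors of the basic leucine zipper family had the highest median of the lists with more than 1 gene. Of the 5 on the panel, all were higher and 3 passed, with a median log2 fold change of 2.01. Maff encodes a small Maf protein that pairs with larger leucine zipper factors on DNA, and it had the smallest p of the panel. It measured 126, 208, 176 and 185 normalized counts in HIBI pups 1, 4, 5 and 7, against 43.9, 43.3, 41.8 and 43.3 in sham pups 2, 3, 6 and 8 (log2 fold change 2.01, SE 0.15, edgeR adjusted p = 0.000226). All 4 HIBI pups lay far above the sham pups, which differed among themselves by only about 2 counts, between 41.8 and 43.9, a level just above the background floor.

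Fos, a subunit of the AP-1 factor and the classic marker of recently activated neurons, measured 1417, 4347, 4932 and 2236 normalized counts in HIBI pups 1, 4, 5 and 7, against 282, 221, 421 and 369 in sham pups 2, 3, 6 and 8 (log2 fold change 3.32, SE 0.40, edgeR adjusted p = 0.00372). Every HIBI pup lay far above the highest sham pup, yet pups 4 and 5 stood well above pups 1 and 7, and the highest HIBI value was 3.48 times the lowest. Without pups 4 and 5 the log2 fold change of Fos was 2.50, and it passed. Atf3, induced by many kinds of cell stress, was more uneven still, with 90.9, 529, 360.3 and 73.9 in the 4 HIBI pups, against 26.0, 12.2, 36.7 and 25.6 in the 4 sham pups (log2 fold change 3.39, SE 0.68, edgeR adjusted p = 0.027). Pups 4 and 5 again carried most of the rise. All 4 sham pups lay at or below the background floor for Atf3, so the size of its fold is uncertain, and without pups 4 and 5 it had a log2 fold change of 1.71 and still passed. It did not pass without HIBI pup 5, without any 1 of the 4 sham pups, in limma-voom, with the level of Uty as a covariate, or with counts raised to the background floor.

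Jun, which pairs with Fos in AP-1, had 1207, 2628, 2665 and 1380.4 in the 4 HIBI pups, against 1002, 974, 1062 and 999 in the 4 sham pups and did not pass (log2 fold change 0.96, SE 0.25, edgeR adjusted p = 0.0896). Its arms did not overlap, and pups 4 and 5 again stood well above pups 1 and 7, which lay close to the sham pups. Without pups 4 and 5 the log2 fold change was 0.35 and Jun passed the edgeR test, and it also passed with DESeq2, without pup 1 and without pup 7.

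The first bases before the transcription start are shown for 4 genes that rose. They were picked by hand, and each holds a short core of the kind that CREB or HIF can bind. Whether these sites act in these genes was not tested. The promoters are those of RefSeq on build GRCm38.p6, given here as the 250 bases before the start site, 5′ to 3′ on the strand of the gene. Capitals mark the core TGACG of the cAMP response element and the whole element TGACGTCA, which contains it, on either strand in Fos, Atf3 and Flt1, and the hypoxia response core ACGTG in Slc2a1. The sequences are Fos at chr12:85473640-85473889, plus strand, Atf3 at chr1:191183334-191183583, minus strand, Slc2a1 at chr4:119108495-119108744, plus strand, and Flt1 at chr5:147726012-147726261, minus strand.
Fos: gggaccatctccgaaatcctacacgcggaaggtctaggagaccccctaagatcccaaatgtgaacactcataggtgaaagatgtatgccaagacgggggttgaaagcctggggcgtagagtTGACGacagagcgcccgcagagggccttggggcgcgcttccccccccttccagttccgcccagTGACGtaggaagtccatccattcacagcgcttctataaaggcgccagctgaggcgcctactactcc
Atf3: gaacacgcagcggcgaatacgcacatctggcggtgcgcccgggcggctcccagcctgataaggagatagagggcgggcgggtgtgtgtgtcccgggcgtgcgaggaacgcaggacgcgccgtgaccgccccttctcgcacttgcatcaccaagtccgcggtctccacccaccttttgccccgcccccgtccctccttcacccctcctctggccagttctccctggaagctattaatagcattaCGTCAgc
Slc2a1: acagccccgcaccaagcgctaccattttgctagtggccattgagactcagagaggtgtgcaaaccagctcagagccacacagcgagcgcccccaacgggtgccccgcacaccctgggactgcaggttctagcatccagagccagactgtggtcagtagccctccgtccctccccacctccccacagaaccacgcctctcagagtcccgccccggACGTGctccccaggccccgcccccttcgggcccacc
Flt1: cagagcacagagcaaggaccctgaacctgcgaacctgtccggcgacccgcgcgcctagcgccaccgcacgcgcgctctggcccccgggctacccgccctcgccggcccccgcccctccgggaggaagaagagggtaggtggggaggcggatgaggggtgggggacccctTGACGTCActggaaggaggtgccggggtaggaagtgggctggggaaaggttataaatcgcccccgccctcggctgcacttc

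In Fos the core TGACG began 129 and 66 bases before the start, in Atf3 it began 7 bases before the start as its reverse complement, in Slc2a1 the hypoxia core began 36 bases before the start, and in Flt1 the whole cAMP response element began 81 bases before it. Promoters were in the table for 13 of the 15 genes that rose, for 4 of the 5 that fell and for 570 of the 732 tested, with Egr1, Ccl2 and Tpd52 without a row. For each gene only the first promoter listed was scanned. Bdnf had 7 listed, Maff and Islr2 3 each, and Hilpda and Slc17a6 2 each, so their other start sites were not searched. For Flt1 and Socs3 the start site used lies inside the annotated gene, whose 5′ end is at chr5:147726438 and chr11:117970336. The bases before those ends were not scanned. Over the window of 250 bases before to 50 after the start, on both strands, TGACG was found in 6 of the 13 (46.2%), in 137 of 570 tested genes (24%) and in 21.0% of all 27025 promoters. The whole element TGACGTCA was in 1 of the 13 (7.69%), against 2.81% of the tested genes, the AP-1 site TGANTCA in 2 (15.4%), against 8.6%, and ACGTG in 3 (23.1%), against 137 of 570 (24%). The CArG box of the serum response factor was in none of the 13 and in 1.4% of the tested genes. Among the 4 genes that fell, TGACG was found in 2 (50%), a share close to that among the 13 that rose, TGANTCA in 1 and ACGTG in 1 (25.0% each). These counts describe letters in a short window and not binding.

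Among 8 genes that neurons transcribe upon activity, 6 were higher and 2 lower, 3 rose and 1 fell past the test, and the median log2 fold change was 0.69. Egr1, a zinc finger factor switched on by synaptic activity, measured 1714, 3979, 4609.5 and 1979 normalized counts in HIBI pups 1, 4, 5 and 7, against 581, 682, 651 and 582 in sham pups 2, 3, 6 and 8 (log2 fold change 2.30, SE 0.31, edgeR adjusted p = 0.00592). The sham pups lay within 581 to 682, all HIBI pups were above 1700, and pups 4 and 5 stood above pups 1 and 7 as they did for Fos. Without pups 4 and 5 the log2 fold change was 1.56, and Egr1 passed. Gadd45g, a stress-inducible gene that also acts in growth arrest, had 400.1, 422, 661 and 388 in the 4 HIBI pups, against 226, 209.8, 233 and 218 in the 4 sham pups (log2 fold change 1.08, SE 0.17, edgeR adjusted p = 0.0127). Here pup 5 stood apart from the other 3 HIBI pups, which lay between 388 and 422.

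Ptgs2, which encodes cyclooxygenase-2 and is made by excited neurons as well as by inflamed cells, had 57.6, 92.8, 126 and 146 in the 4 HIBI pups, against 27.8, 31.1, 39.7 and 33.5 in the 4 sham pups (log2 fold change 1.68, SE 0.28, edgeR adjusted p = 0.0182). Pup 7 was highest and pup 1 lowest, an order that differs from that of Fos, and none of the sham counts lay above the background floor. Arc, a regulator of synaptic strength, had 179, 385, 411 and 183 in the 4 HIBI pups, against 149, 147, 176 and 126 in the 4 sham pups and did not pass (edgeR adjusted p = 0.132). Its values in pups 1 and 7 were within a few counts of the highest sham pup, so that its fold change rested on pups 4 and 5. Nptx1, a secreted synaptic protein, stood at a log2 fold change of 0.42 (SE 0.17), short of the test.

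Bdnf, the brain-derived neurotrophic factor, which depolarized neurons usually raise, fell. It measured 272, 205, 227 and 259 normalized counts in HIBI pups 1, 4, 5 and 7, against 329, 431, 400.5 and 337 in sham pups 2, 3, 6 and 8 (log2 fold change -0.64, SE 0.12, edgeR adjusted p = 0.0237), or 64.3% of sham. Every HIBI pup lay below every sham pup, and the lowest values were in pups 4 and 5, the pups with the most Fos. Without these libraries the log2 fold change was -0.50 and did not pass.

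**Figure D2:**
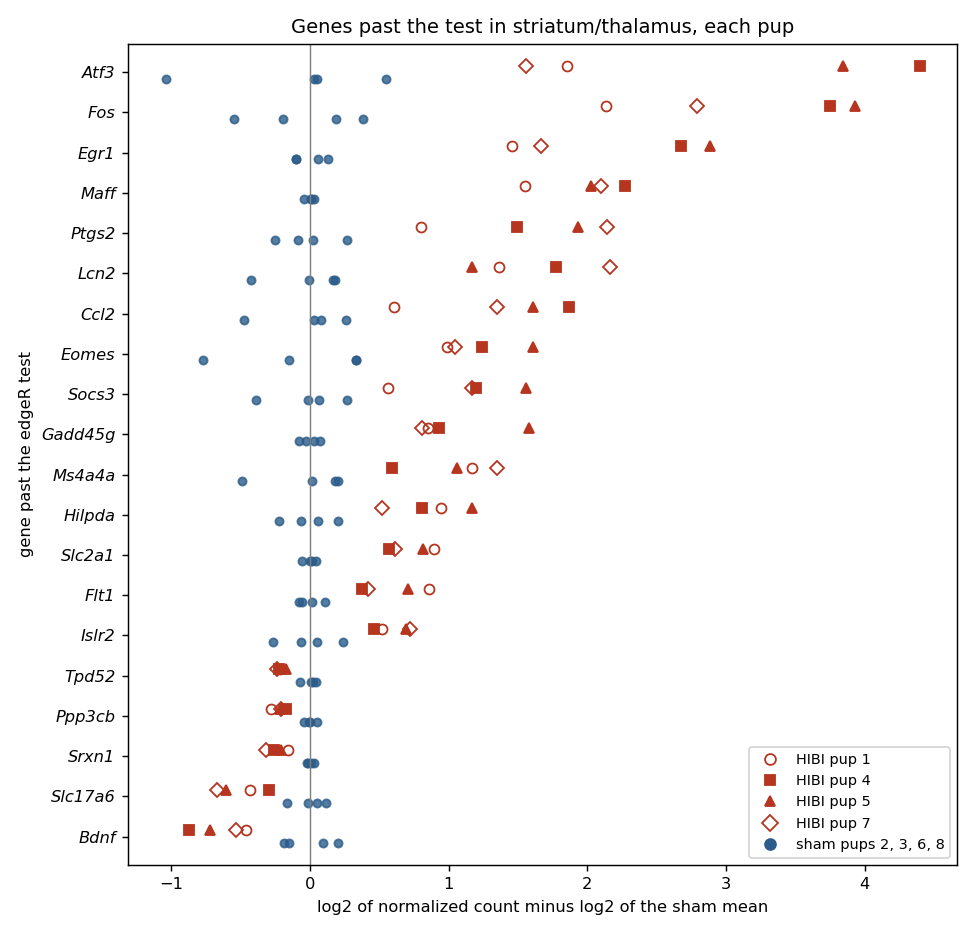
For each of the 20 genes past the test, points show the log2 of the normalized count in each pup minus the log2 of the sham mean, with HIBI pups in the upper line of each row (pups 4 and 5 filled) and sham pups in the lower line. The arms do not overlap in any row, and for Fos, Egr1 and Atf3 pups 4 and 5 lie to the right of pups 1 and 7.

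Genes known as targets of HIF were higher in 11 of 14, with a median log2 fold change of 0.26, and 3 of them rose. Slc2a1, the glucose transporter GLUT1 of brain vessels and glia, measured 727, 581, 690.1 and 599 normalized counts in HIBI pups 1, 4, 5 and 7, against 395, 391, 404 and 376 in sham pups 2, 3, 6 and 8 (log2 fold change 0.73, SE 0.082, edgeR adjusted p = 0.00294). Both arms were tight and well separated, with no HIBI pup below 581 and no sham pup above 404. Hilpda, a hypoxia-inducible protein of lipid droplets, had 206, 187, 239.8 and 153 in the 4 HIBI pups, against 123, 91.3, 102 and 111 in the 4 sham pups (log2 fold change 0.88, SE 0.15, edgeR adjusted p = 0.0217). Pup 5 was highest and pup 7 lowest. Flt1, a receptor of vascular endothelial growth factor, had 313, 224, 282 and 232 in the 4 HIBI pups, against 164, 167, 186 and 175 in the 4 sham pups (log2 fold change 0.60, SE 0.12, edgeR adjusted p = 0.027). Here pup 1 was highest and pup 4 lowest, and the arms of both genes were apart.

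Vegfa, the ligand of Flt1, had 1946, 942, 1732 and 1419 in the 4 HIBI pups, against 870.3, 979, 973 and 1002 in the 4 sham pups and did not pass (log2 fold change 0.66, SE 0.19, edgeR adjusted p = 0.118). Pups 1, 5 and 7 lay above all sham pups, while pup 4 lay inside the sham range. A similar arrangement, with pup 4 just below the sham range, was found for Kdm3a, a hypoxia-inducible histone demethylase, with 483 normalized counts in pup 4 and 812 to 847 in the other HIBI pups, against 502 to 580 in sham pups. It was found again for F3, which encodes tissue factor, the starter of blood clotting, with 866 in pup 4 and 1440 to 1679 in the other HIBI pups, against 918 to 1018 in sham pups. Without pup 4 the log2 fold changes were 0.83 for Vegfa, 0.62 for Kdm3a and 0.68 for F3, and all 3 passed the edgeR test. Pup 4 thus had high Fos, Egr1 and Atf3 but no more Vegfa, Kdm3a and F3 than sham pups, whereas pup 1 had the highest Vegfa and F3 and the lowest Fos.

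**Figure D3:**
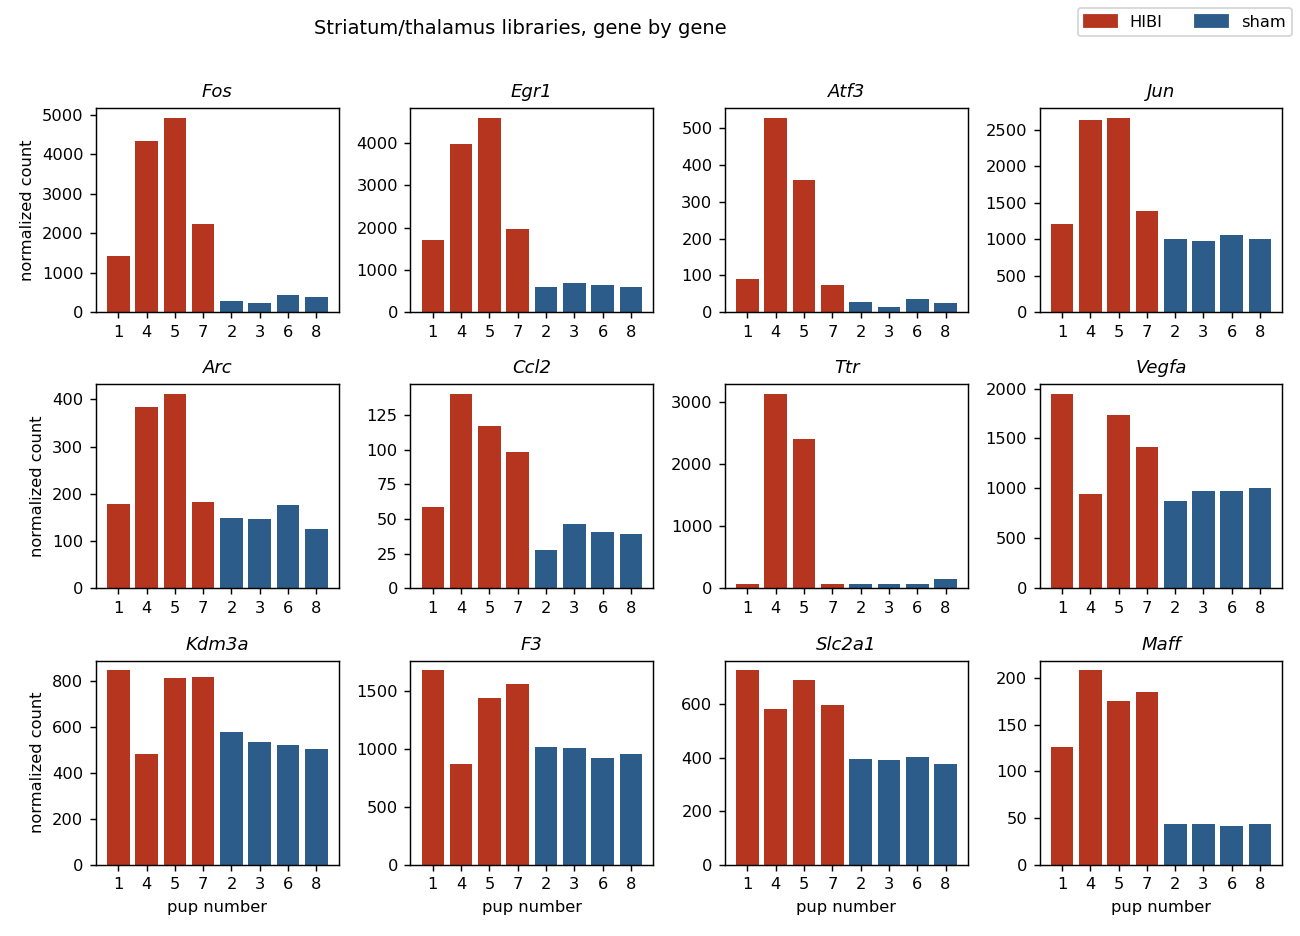
Bars show normalized counts of 12 genes in each striatum/thalamus library, HIBI pups 1, 4, 5 and 7 on the left of each panel and sham pups 2, 3, 6 and 8 on the right. Pups 4 and 5 are highest for Fos, Egr1, Atf3, Jun, Arc, Ccl2 and Ttr, while pup 4 does not stand above the sham pups for Vegfa, Kdm3a and F3.

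Hif1a itself, whose protein rather than mRNA is regulated by oxygen, had a log2 fold change of -0.067 (SE 0.038), Ldha, lactate dehydrogenase, of 0.091 (SE 0.045), and Bnip3, a mitophagy gene, of -0.077 (SE 0.057), and none of them passed. These were picked for their known roles after their values were seen. Of the 12 endothelial and vessel genes 9 were higher (median 0.25), and the 2 that rose, Slc2a1 and Flt1, are the hypoxia targets above. Nostrin and Pecam1, which mark endothelium without being HIF targets, had log2 fold changes of 0.44 (SE 0.14) and 0.18 (SE 0.063), with the arms apart but no pass. Over all genes tested the HIBI pups lay fully above the sham pups in 5.19%. Cldn5, the tight junction protein of brain vessels, was at -0.10 (SE 0.091). Icam2, Esam, Emcn and Tie1, also of endothelium, were at 0.11 (SE 0.094), 0.038 (SE 0.10), -0.029 (SE 0.080) and -0.051 (SE 0.10), with the arms overlapping. Of these endothelial markers, all but Nostrin were picked with their values known.

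The 10 genes of the NRF2 antioxidant response were split evenly, 5 higher and 5 lower, with a median of 0.018. Srxn1, the antioxidant enzyme sulfiredoxin, fell to 85.0% of sham with 1713, 1605, 1659 and 1537 in the 4 HIBI pups, against 1890.1, 1926, 1952 and 1897 in the 4 sham pups (log2 fold change -0.23, SE 0.047, edgeR adjusted p = 0.027). The shift was small but larger than the spread within either arm. Nfe2l2, which encodes NRF2 itself, had 80.8, 73.5, 87.9 and 78.8 in the 4 HIBI pups, against 69.8, 43.3, 56.0 and 57.1 in the 4 sham pups with a log2 fold change of 0.50 (SE 0.14), and the test was not passed. Among 13 p53 and growth arrest genes 9 were higher (median 0.085) and Gadd45g was the single one past the test. Sesn1 and Trp73 had log2 fold changes of 0.27 (SE 0.079) and 0.35 (SE 0.12), and Cdkn1a, the textbook p53 target, chosen after its value was seen, of -0.0083 (SE 0.086).

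Inflammatory genes moved at few points. Of 10 chemokine genes 9 were higher (median 0.11), but only Ccl2, which draws monocytes, rose, with 58.6, 140.3, 117 and 98.3 normalized counts in HIBI pups 1, 4, 5 and 7, against 27.8, 46.1, 40.8 and 39.4 in sham pups 2, 3, 6 and 8 (log2 fold change 1.42, SE 0.27, edgeR adjusted p = 0.0217). Pups 4, 5 and 7 lay far above the highest sham pup and pup 1 nearer to it. Only 2 of the 4 sham libraries lay above the background floor for Ccl2, so the size of its fold is uncertain. Ccl3 and Ccl4, chemokines of activated microglia, did not pass. Ccl3 had 77.8, 158, 195 and 83.7 in the 4 HIBI pups, against 50.1, 42.3, 83.6 and 73.8 in the 4 sham pups. Ccl4 had 24.2, 52.0, 61.9 and 37.0 in the 4 HIBI pups, against 21.5, 28.2, 23.4 and 22.6 in the 4 sham pups. In both genes pups 4 and 5 were again the high ones, and pup 1 lay inside the sham range. Without the libraries of pups 4 and 5 the median of the 10 chemokine genes was -0.08, with 4 of them higher. Ccl2 then missed the test by a narrow margin (log2 fold change 1.03, edgeR adjusted p = 0.050006).

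Socs3, a feedback inhibitor of Jak-Stat signaling, was the only one of 26 cytokine and Jak-Stat genes to rise, with 67.7, 105, 135 and 103 in the 4 HIBI pups, against 34.9, 48.0, 55.0 and 45.3 in the 4 sham pups (log2 fold change 1.16, SE 0.22, edgeR adjusted p = 0.0217). Pup 1 was the lowest HIBI pup and pup 5 the highest, and 3 of the 4 sham libraries lay above the background floor. Without pups 4 and 5 Socs3 missed the test by a narrow margin (log2 fold change 0.90, edgeR adjusted p = 0.050006). The list as a whole had 20 members higher and a median of 0.094, or 19 and 0.029 without HIBI pups 4 and 5. Il1a had a log2 fold change of 0.55 (SE 0.18) without passing, but its means of 25.6 in HIBI and 17.5 in sham pups lay below the background floor. With counts raised to that floor its log2 fold change was 0.11. Il1b and Tnf, the main early cytokines of activated microglia, chosen for that role after their values were seen, were near or below background in both arms (18.4 to 28.3 in HIBI and 21.4 to 29.2 in sham pups for Il1b, 19.2 to 36.9 in HIBI and 16.1 to 32.5 in sham pups for Tnf), so a change in them was not detectable at this depth.

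Among 24 NF-kappaB and Toll-like receptor genes 16 were higher (median 0.076) and none passed. Nfkbia, the inhibitor that NF-kappaB itself induces, came nearest, with 199, 190.0, 184 and 179 in the 4 HIBI pups, against 129.8, 144, 151 and 153 in the 4 sham pups (log2 fold change 0.38, SE 0.087, edgeR adjusted p = 0.0556). Its arms were fully apart. Tnfrsf1a, the main receptor for TNF, had 266, 239, 265 and 289 in the 4 HIBI pups, against 216, 199, 209.9 and 187 in the 4 sham pups and the same adjusted p from edgeR of 0.0556, and the arms were apart here too. The 26 genes of the TNF family were otherwise balanced, 14 higher and 12 lower (median 0.014, or -0.045 without HIBI pups 4 and 5). Fas was at 0.50 (SE 0.14), Tnfrsf10b at 0.68 (SE 0.24) and Tnfsf10 at -0.51 (SE 0.23). In the NF-kappaB and Toll-like receptor list, Casp1 and Tlr4 were at 0.37 (SE 0.12) and 0.41 (SE 0.15). Myd88 of the same list was at -0.40 (SE 0.14), with all HIBI pups below the sham pups.

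Lcn2, lipocalin-2, an acute phase protein that reactive astrocytes secrete, rose in all HIBI pups, with 64.7, 86.0, 56.4 and 113 normalized counts in HIBI pups 1, 4, 5 and 7, against 25.1, 28.2, 28.5 and 18.7 in sham pups 2, 3, 6 and 8 (log2 fold change 1.67, SE 0.24, edgeR adjusted p = 0.00975). The sham values lay below the background floor, so the fold of 3.18 is uncertain in size, while the arms were apart. Of 31 reactive astrocyte genes 26 were higher (median 0.34), and Lcn2 and Ptgs2 were the 2 that passed. Vim, vimentin, an intermediate filament, had 835, 856, 943 and 1097 in the 4 HIBI pups, against 766, 667, 713 and 734 in the 4 sham pups (log2 fold change 0.37, SE 0.091, edgeR adjusted p = 0.073). Tm4sf1, a membrane protein of vessel cells, had 394, 355, 446 and 519 in the 4 HIBI pups, against 271, 218, 315 and 319 in the 4 sham pups (log2 fold change 0.61, SE 0.15, edgeR adjusted p = 0.0751). In both the arms did not overlap and pup 7 was highest, as it was for Lcn2 and Ptgs2. Pdpn, podoplanin, a membrane protein of astrocytes and vessels, had 565, 508, 582 and 711 in the 4 HIBI pups, against 469, 406, 441 and 440.1 in the 4 sham pups (log2 fold change 0.43, SE 0.10, edgeR adjusted p = 0.0675), with pup 7 highest once more. Of 10 genes that mark astrocytes at rest 8 were higher (median 0.14), and none passed.

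Ms4a4a, a membrane protein of macrophages, rose with 87.9, 58.8, 81.4 and 99.2 in the 4 HIBI pups, against 27.8, 44.2, 44.8 and 39.4 in the 4 sham pups (log2 fold change 1.07, SE 0.20, edgeR adjusted p = 0.0217), the only one of 20 microglia and macrophage markers to do so. Unlike Fos, it was lowest in pup 4 among the HIBI pups. Only 2 of the 4 sham libraries lay above the background floor for Ms4a4a, so the size of its fold is uncertain. Of the list 16 genes were higher (median 0.23). The markers of resting microglia P2ry12, Tmem119 and Cx3cr1, picked after their values were seen, had log2 fold changes of -0.041 (SE 0.063), 0.063 (SE 0.11) and 0.016 (SE 0.065). The myeloid genes Cd68, Mpeg1 and Cd163, picked in the same way, had 0.33 (SE 0.12), 0.66 (SE 0.24) and 0.53 (SE 0.20), and none passed.

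Complement genes were higher in 9 of 10 with a median of 0.33, and none passed. C4a had 158, 123, 242 and 283 in the 4 HIBI pups, against 113, 96.0, 118 and 94.5 in the 4 sham pups (log2 fold change 0.94, SE 0.24, edgeR adjusted p = 0.0896), with the arms apart and pups 5 and 7 highest. The 3 chains of C1q, the recognition molecule of the classical pathway made by microglia, were close to each other in size, at 0.29 (SE 0.093) for C1qa, 0.35 (SE 0.10) for C1qb and 0.31 (SE 0.11) for C1qc. The receptor C3ar1 was at 0.62 (SE 0.21). Fc receptor and ITAM genes had 12 of 18 higher (median 0.12), and genes for the clearance of dying cells 8 of 9 (median 0.14), with no call in either. Without HIBI pups 4 and 5 these were 10 of 18 (median 0.020) and 7 of 9 (median 0.078). Fyn had the smallest p of the Fc receptor and ITAM list, at -0.15 (SE 0.045) with all HIBI pups below the sham pups. Tyrobp and Cd33 of that list were at 0.28 (SE 0.096) and 0.25 (SE 0.10). Of 22 leukocyte markers 14 were higher (median 0.022) and none passed, and without HIBI pups 4 and 5 the direction turned, with 8 higher and a median of -0.0947.

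**Figure D4:**
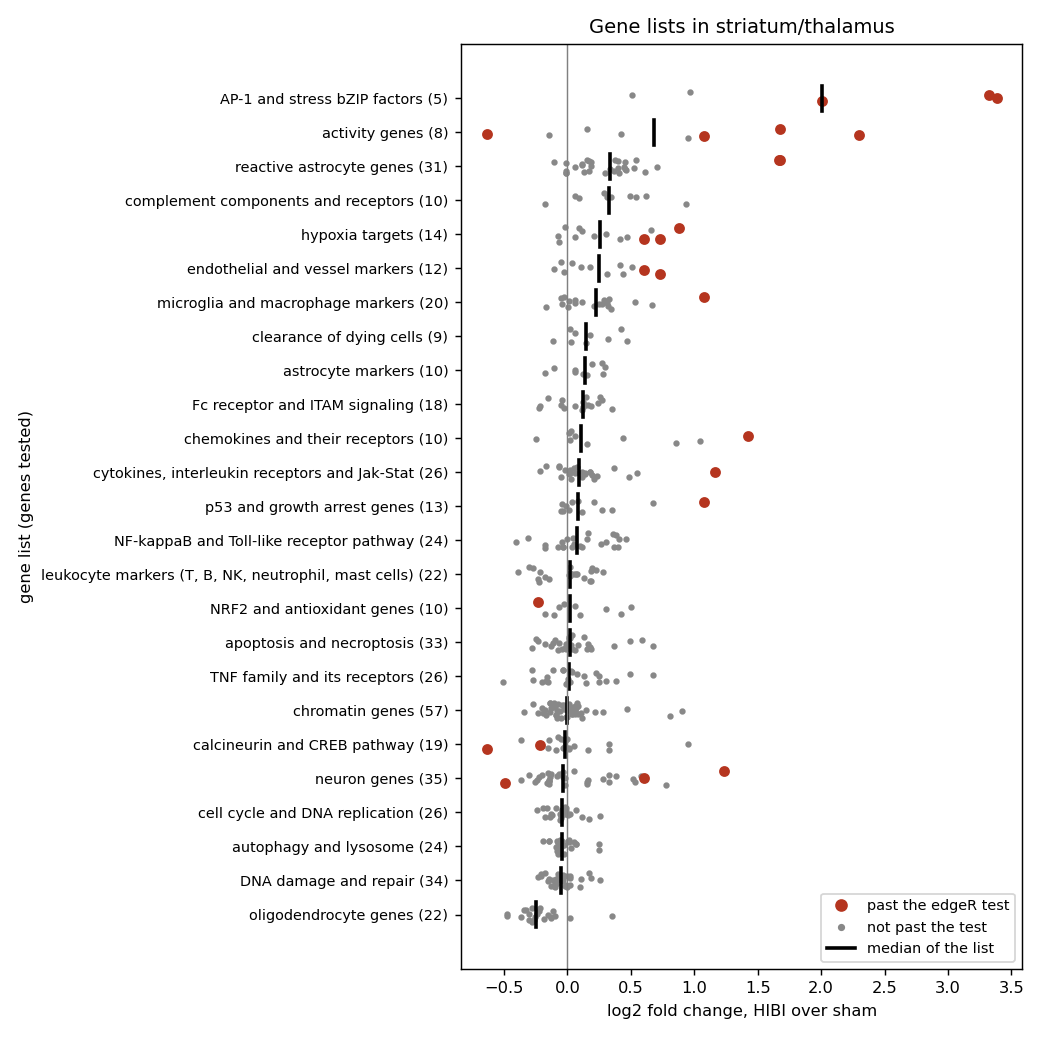
Points are log2 fold changes of HIBI over sham of the genes of each list, with the number tested in brackets, red where the gene passed the edgeR test, and bars mark the list medians. Only lists with at least 5 genes tested are drawn. Among these, the AP-1 and activity lists have the highest medians (2.01 and 0.69) and the oligodendrocyte list the lowest (-0.25), while the median over all tested genes was 0.0038. A gene can stand on more than 1 list.

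Neuronal genes were split, 14 of 35 higher and 21 lower with a median of -0.037, and the list held a fall and 2 rises past the test. Slc17a6, the vesicular glutamate transporter of thalamic neurons, fell to 71.0% of sham with 9472, 10424, 8432 and 8061 normalized counts in HIBI pups 1, 4, 5 and 7, against 11403, 12709.8, 13884 and 13243 in sham pups 2, 3, 6 and 8 (log2 fold change -0.49, SE 0.089, edgeR adjusted p = 0.0217). No HIBI pup reached the lowest sham pup, and the gene did not pass when the 24 libraries of the series shared 1 estimate of the spread (edgeR adjusted p = 0.236). In tissue measured in bulk, fewer cells of a type and less RNA per cell cannot be told apart, and the share of striatum and thalamus in each dissection is part of the same measurement. Dlx1 and Dlx2, factors of striatal interneurons and their precursors, had log2 fold changes of 0.51 (SE 0.27) and 0.78 (SE 0.24) and neither passed. In sham pups Dlx1 was 395.7 to 783.5 CPM here and 458 to 689.5 in cortex. Dlx2 was 34.2 to 76.3 CPM here and 49.8 to 66.6 in cortex, so neither gene sets this block apart from cortex. In sham pups 2 and 8, which held the most Dlx1 and Dlx2 of their arm, Slc17a6 was 11403 and 13243, and in HIBI pup 4, which held the least of its arm, Slc17a6 was 10424, the highest of the HIBI pups. The part of the dissection in the result was not tested.

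Islr2, a membrane protein of growing axons, rose with 1048, 1011, 1184 and 1207 in the 4 HIBI pups, against 864, 757, 608 and 700.0 in the 4 sham pups (log2 fold change 0.60, SE 0.11, edgeR adjusted p = 0.0217). The arms were apart, with pup 7 highest. Eomes, a factor of neuronal precursors, rose with 60.6, 72.4, 93.3 and 63.2 in the 4 HIBI pups, against 38.5, 17.9, 27.5 and 38.4 in the 4 sham pups (log2 fold change 1.23, SE 0.24, edgeR adjusted p = 0.0237). For Eomes all sham libraries lay at or below the background floor, so its fold of 2.35 is uncertain in size. Its highest values were in pups 4 and 5, the pups rich in Ttr, and without these libraries it did not pass (log2 fold change 1.01). Tbr1, the cortical factor that follows Eomes in that lineage, had 97, 139, 129 and 140.1 in the 4 HIBI pups, against 85.1, 96.0, 66.2 and 101 in the 4 sham pups, with 0.53, SE 0.16 on the log2 scale, and missed the test. Slc17a7, the cortical glutamate transporter VGLUT1, was at 1918 in HIBI pup 4, 795, 956 and 662 in HIBI pups 1, 5 and 7, and 1147 to 1355 in sham pups. Gria1, an AMPA glutamate receptor subunit, was at 2074 in HIBI pup 4 and 2626 to 2735 in the other HIBI pups, against 1870 to 2090 in sham pups, and passed the edgeR test without pup 4 (log2 fold change 0.42). Rbfox3, Syp and Tubb3, which most neurons express, chosen after their values were seen, had log2 fold changes of -0.037 (SE 0.063), -0.036 (SE 0.06) and -0.13 (SE 0.053).

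Of the calcineurin and CREB pathway, which couples calcium entry to transcription, 7 of 19 genes were higher and 12 lower (median -0.021, or 0.036 without HIBI pups 4 and 5), and 2 fell, Bdnf above and Ppp3cb. Ppp3cb, a catalytic subunit of the phosphatase calcineurin, fell to 86.0% of sham with 5864, 6323, 6119 and 6149 in the 4 HIBI pups, against 6889, 7129.8, 7068 and 7356 in the 4 sham pups (log2 fold change -0.22, SE 0.04, edgeR adjusted p = 0.0217). The change was small and the arms were far apart for their spread, with coefficients of variation of 3.1% in HIBI and 2.7% in sham pups. The other catalytic subunit on the panel, Ppp3ca, chosen after its value was seen, had a log2 fold change of 0.05 (SE 0.07). Gria1 and Arc, also on this list and of smaller p than the next pair, had 0.33 (SE 0.086) and 0.95 (SE 0.29) without passing. Camk4, a kinase that activates CREB, and Creb1, chosen after their values were seen, had -0.37 (SE 0.14) and -0.15 (SE 0.062), and neither passed. Tpd52, which stands on no list and acts in vesicle traffic, fell to 86.4% of sham with 2047, 2030.3, 2108 and 2009.9 in the 4 HIBI pups, against 2403, 2383, 2439.5 and 2261 in the 4 sham pups (log2 fold change -0.21, SE 0.043, edgeR adjusted p = 0.027), the tightest HIBI arm among the 20 genes, at a coefficient of variation of 2.1%. Ccni, a cyclin expressed in neurons, and Dusp7, a phosphatase of MAP kinases, fell short of the test at 82.7% and 86.5% of sham (edgeR adjusted p = 0.0605 and 0.0765). Ppp3cb, Srxn1 and Tpd52 did not pass when libraries were scaled by the 13 reference genes.

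Oligodendrocyte genes were lower in 20 of 22 (median -0.25), and none passed even without adjustment at 0.05. The mean of the list relative to sham was -0.77 on the log2 scale in HIBI pup 7 and -0.36 in pup 1, but 0.23 in pup 4 and -0.12 in pup 5, and it ran between -0.31 and 0.27 in sham pups. Bcas1, of newly myelinating cells, had the smallest p of the list, with a log2 fold change of -0.31 (SE 0.15). Without pups 4 and 5 the median of the list was -0.58 and 2 members passed.

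The remaining lists stayed close to the median of the panel. Medians were 0.017 for 33 apoptosis and necroptosis genes, -0.043 for 24 autophagy and lysosome genes, -0.049 for 34 DNA repair genes, -0.043 for 26 cell cycle genes and -0.0056 for 57 chromatin genes, and no member of these lists passed the test. Of the cell cycle genes 20 were lower, and of the DNA repair genes 26, with shifts too small to pass in any member. Bax, of the mitochondrial path of cell death, picked after its value was seen, had a log2 fold change of 0.0095 (SE 0.053), with 579.9, 544, 548 and 571 in the 4 HIBI pups, against 576, 538, 554 and 560.2 in the 4 sham pups. Brd2, a reader of acetylated histones, had the smallest p of the chromatin genes, at a log2 fold change of -0.14 (SE 0.042) with all HIBI pups below the sham pups, and Kdm3a, above, is on the same list. The sign of the chromatin median turned with reference-gene scaling and without HIBI pups 4 and 5.

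The HIBI pups differed from each other more than the sham pups did. Pairs of HIBI libraries correlated across genes at r of 0.973 to 0.988, pups 4 and 7 being the least alike, and pairs of sham libraries at 0.989 to 0.994. In 7 of the 15 genes that rose, Fos, Egr1, Gadd45g, Socs3, Ccl2, Eomes and Atf3, pups 4 and 5 were the 2 highest. Pup 1 was the lowest HIBI pup in 7 of the 15 and the highest in 2, Slc2a1 and Flt1. Pup 7 was the highest in 4, which were Lcn2, Ptgs2, Islr2 and Ms4a4a. Without pup 4 the test called 55 genes and without pups 4 and 5 it called 48, and it called 6 without pup 5 and 5 each without sham pup 3, 6 or 8. Maff, Slc2a1, Fos, Egr1 and Lcn2 passed whichever pup was left out.

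The same pups gave cortex and cerebellum, so the HIBI effect in striatum/thalamus was set against theirs by fitting the 24 libraries together, each pup being a block, over 745 genes. Against the cortex, which the carotid artery also feeds, no difference of effect passed (edgeR, 0 of 745, with 46, or 6.17%, at an unadjusted p under 0.05). Against the cerebellum, which is fed by other arteries, 6 of 745 (0.805%) passed, 4 with a higher effect in striatum/thalamus (0.537%) and 2 with a lower one (0.268%). Brain region and blood supply go together in this design, so their parts in such differences cannot be told apart. Socs3 had a log2 fold change of 1.16 in striatum/thalamus and 1.09 in cortex, against -0.02 in cerebellum, and its difference from the cerebellum was 1.18 (SE 0.22, edgeR adjusted p = 0.0160). Vim had 0.37, against -0.31 in cerebellum (difference 0.70, SE 0.13), and Ccng2, a cyclin that HIF raises, had 0.21, against -0.56 in cerebellum (difference 0.78, SE 0.14), both with an edgeR adjusted p of 0.0160. Eomes, which cerebellar unipolar brush cells also express, had 1.23, with its sham striatum/thalamus values at background, against -0.94 in cerebellum (difference 2.24, SE 0.38, edgeR adjusted p = 0.0160).

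Slc17a6 had a log2 fold change of -0.49 in striatum/thalamus, against 0.41 in cerebellum (difference -0.96, SE 0.21, edgeR adjusted p = 0.0393), and Fgf13, a growth factor homolog that modulates sodium channels, had -0.26, against 0.24 (difference -0.50, SE 0.11, edgeR adjusted p = 0.0478). Of these 6 genes none passed within the cerebellum alone, and Vim, Ccng2 and Fgf13 did not pass within the striatum/thalamus alone. The number of such genes was 1 without pups 4 and 5 in striatum/thalamus, 14 with reference-gene scaling, 16 without HIBI pup 4, 10 without sham pup 6, 3 without HIBI pup 7, and 0 without sham pup 2, sham pup 3, HIBI pup 5 or sham pup 8.

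**Figure D5:**
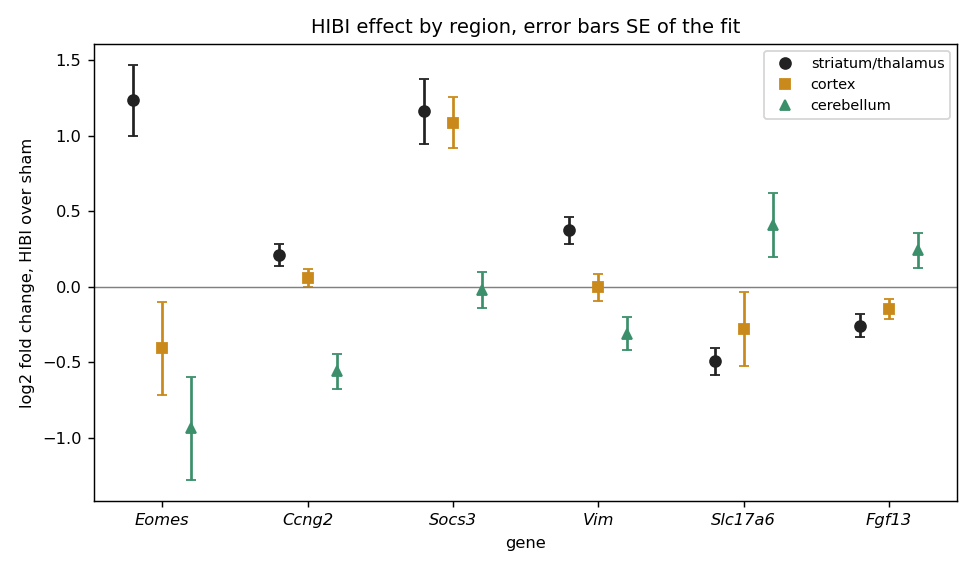
Points show the log2 fold change of HIBI over sham in striatum/thalamus, cortex and cerebellum, each fitted within its region, for the 6 genes whose effect differed between striatum/thalamus and cerebellum, with the SE of the fit as error bars. Eomes, Ccng2, Socs3 and Vim are above 0 in striatum/thalamus and lower in cerebellum, and Slc17a6 and Fgf13 the other way round.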

How the data were processed

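Right striatum/thalamus RNA of 8 pups was measured on the nCounter platform. Per the labels, the values deposited by the authors are raw barcode counts per probe, not normalized. The nSolver settings of the authors are not given in the sources used here. From the deposited counts, 757 endogenous genes were taken, and the 732 with at least 20 counts in at least 4 of the 8 libraries were tested in R 4.3.3 with edgeR 4.0.16 (TMM scaling, quasi-likelihood F test, HIBI against sham, Benjamini-Hochberg adjustment over all genes tested). Normalized counts are counts divided by the effective library size relative to the mean of the 8 libraries. The other 25 genes had too few counts and were not tested. Precision rests on 4 pups an arm, which are separate animals, and on 855129 to 1046405 counts a library. No replicate pair agreed within counting noise.

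Effects were compared between regions in a fit of 24 libraries with the pup as block, since the labels give the same pup number to the 3 regions of an animal. DESeq2 1.42.0, limma 3.58.1 with voom, reference-gene scaling, 1 fit of all 24 libraries, the level of Uty as a covariate, other filters and leaving out libraries were the alternatives. Named genes are those past the test, the next 10 by p, up to 4 of smallest p in each list, Ttr, Uty and the genes of the region test. Other genes, among them Nptx1, Pecam1, Cldn5, Dlx1, Slc17a7, Camk4 and Creb1, were picked outside this rule with their values known. The gene lists, the members and this rule were chosen with earlier results of these data known. The fit was tested on simulated data. Promoters came from RefSeq on GRCm38.p6. Some results are not reported here.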

Additional observations from a re-analysis of the deposited data

Results flagged for a closer look

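Single pups stood apart from the other 3 of their arm in 9 of 162 groups of 4 values examined, by a gap to the nearest pup that Dixon's criterion takes as large against the range, which about 1 in 20 groups meets by chance. Among HIBI pups, Gadd45g was 661 normalized counts in pup 5 (388 to 422 in the others), Gria1 2074 in pup 4 (2626 to 2735) and Kdm3a 483 in pup 4 (812 to 847). Among sham pups, Tnfsf10 was 60.9 in pup 2 (50.2 to 52.0), Myd88 119 in pup 8 (99.7 to 103), C1qc 590.0 in pup 3 (672 to 681), Kat2b 454 in pup 8 (509 to 515) and Ttr 148 in pup 8 (68.7 to 77.0). Uty, a gene of the Y chromosome, was 574 in sham pup 3 and 21.7 to 36.7 in the other sham pups, and the sex of each pup is not labelled. Its log2 fold change of HIBI over sham was 0.90 (edgeR adjusted p = 0.745), or 3.45 without sham pup 3. Whether the arms hold the same share of males is therefore not known.

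The HIBI effect differed between striatum/thalamus and cerebellum in 6 genes by the edgeR test of the difference itself. The difference of log2 fold changes was 2.24 for Eomes (uncertain in size, its sham striatum/thalamus values being at background), 0.78 for Ccng2, 1.18 for Socs3, 0.70 for Vim, -0.96 for Slc17a6 and -0.50 for Fgf13.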

How the results depend on the processing

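Of the 20 genes past the test, Maff, Slc2a1, Fos, Egr1 and Lcn2 passed in all 16 alternatives, Gadd45g in 13, Atf3 in 8 and Tpd52 in 7. The count was 48 with DESeq2 (all 20 remained), 48 without the 2 Ttr-rich HIBI libraries, pups 4 and 5 (16 remained), and 32 with the level of Uty as a covariate (19 remained). Leaving out 1 pup gave 5 to 55 genes, with 55 without HIBI pup 4, 6 without HIBI pup 5, and 5 without each of sham pups 3, 6 and 8. Fewer samples entered these fits, and the cause of the differing counts was not tested. The count against cortex was 0 in every alternative, and that against cerebellum was 1 without the 2 Ttr-rich libraries, 14 with reference-gene scaling and 0 to 16 when 1 pup was left out. Without the pup as a block, 4 genes passed against cerebellum and 0 against cortex, so this paired design changed no count by over 1.5 times. Ttr reversed to -0.31 without the 2 Ttr-rich libraries, and Cd6 reversed to 0.11 (-0.27 otherwise) when counts were raised to the background floor. At 4 pups an arm and with low counts of Lcn2, Ptgs2, Eomes and Atf3 at or below background in sham pups, the size of those folds is limited by depth. Ccl2 and Ms4a4a had 2 of 4 sham libraries above the background floor and Socs3 had 3, so their folds share this limit in part.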
